A study of Ovis aries with 36 samples.

Results

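The 136 genes described here were selected on their levels in the motor cortex of lambs, which were higher after the preterm stage. A gene was taken when its mean level over the 7 lambs of the later arms was at least 5 CPM (the reads of a gene over all reads of its library, times 1000000) and when the lowest of these 7 lambs lay at least 1.5 times above the higher of the 2 preterm lambs. Of 27054 genes in the table, 12336 reached the level threshold, and 136 of these (1.10%) met both conditions. The rule leaves out ENSOARG00000009539. The motor cortex values chose these genes, so that their rise in this region is a description and not a finding. What could be examined is how the same genes behaved in the hippocampus, the basal ganglia and the cerebellum.

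The study collected flash-frozen tissue of these 4 regions from 9 lambs, 1 library per region and lamb, 36 in all. The preterm arm was made up of 2 lambs (H, female, and I, male) that were delivered preterm and examined at once. The late preterm arm was made up of 2 lambs (F and G, both male), delivered at 127 days of gestation and also examined at once. The supported arm was made up of 5 lambs (A, B, D and E, female, and C, male) delivered preterm, cannulated immediately and maintained on EXTEND to a gestational age near 127 days. The labels give neither the breed nor the exact ages of the preterm and supported lambs. Supported lambs differ from preterm lambs in both age and support, and these cannot be told apart here.

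EXTEND is an extrauterine system in which a preterm lamb continues to develop while its blood is oxygenated outside the body. The motor cortex is the part of the cerebral cortex that drives voluntary movement. In sheep much brain growth takes place before birth, and late gestation is a time of cortical folding, growth of neuronal processes, formation of synapses and the start of myelin formation by oligodendrocytes. The files give genes by Ensembl identifier, and 0 of them could be paired with a symbol or a sequence here, so the function of each gene is not stated and neither marker genes nor gene lists for brain cell types could be used. Tissue identity was therefore checked by whole profiles. In whole tissue, more cells of a type and more RNA per cell cannot be told apart.

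Library depth ran from 8782652 to 18153142 counts. Lambs A, H and I had shallower libraries, 12 in all (8782652 to 13020225), than lambs B to G, with 24 (13765297 to 18153142), so that only lamb A shares a depth range with the preterm arm. All 9 motor cortex libraries correlated best with the motor cortex profile of the other lambs, across 15229 genes, and all 9 cerebellum libraries with that of the cerebellum. Of the hippocampus libraries, 5 correlated best with another region. Those of both preterm lambs and of late preterm lamb G lay closest to the motor cortex, and those of supported lambs B and E to the basal ganglia. In the basal ganglia 4 libraries correlated best with another region. That of preterm lamb I lay closest to the motor cortex, and those of supported lamb A and both late preterm lambs to the hippocampus. The cerebellum libraries of lamb D (r = 0.527), G (0.654) and H (0.197) lay farther from the profile of their region than the other 6 (0.793 to 0.892), across the same genes.

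Levels of the set ranged widely in the motor cortex. The mean over the later lambs had a median of 37.2 CPM over the 136 genes, with a lowest of 5.34 and a highest of 1667 CPM, and 43 genes were at 100 CPM or more. The mean over the preterm lambs had a median of 14.7 CPM. The ratio of the lowest later to the highest preterm lamb reached 5.28 with a median of 1.78, and it was at least 2 in 44 genes and at least 3 in 10. The fold of the means was 1.69 to 13.2 with a median of 2.67. So 92 of the 136 had a ratio under 2, and a short tail lay far above. The lowest read count of any of the 136 in a preterm library was 4, and 5 genes had under 10 reads in one.

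Just inside the ratio threshold, ENSOARG00000014106 was at 1.502 (362 CPM in the lowest later lamb against 241 CPM in the highest preterm lamb) and ENSOARG00000018274 at 1.505 (342 against 227 CPM). Just outside, ENSOARG00000013306 was at 1.499 (23.5 against 15.7 CPM) and ENSOARG00000000022 at 1.496 (1123 against 751 CPM). The edge of the set thus cuts through a continuous range. Among the 12336 genes at the level threshold, 1392 (11.3%) had all later lambs above both preterm lambs at any ratio.

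The 7 later lambs were not alike in how close they came to the threshold. Late preterm lamb F had the lowest later value in 68 of the 136 genes, lamb G in 18, C in 15, B in 14, A in 10, E in 9 and D in 2. The preterm lambs shared the limiting role almost evenly, H being the higher in 69 genes and I in 67.

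As a check of scale, edgeR's quasi-likelihood test with Benjamini-Hochberg adjustment called 135 of the 136 genes higher and 0 lower in supported than in preterm motor cortex, where 6.46% of all 16173 tested genes were called higher and 5.79% lower. All 136 had a positive log2 fold change (49.7% of all tested genes). For late preterm against preterm it called 108 higher and 0 lower, where 1.56 and 1.03% of all tested genes were, and 0 were lower at an unadjusted p under 0.05 (9.1%). The rule used these contrasts, and nothing is read from the counts.

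ENSOARG00000005007 had the largest ratio in the motor cortex, 5.28. Its level was 60.7, 54.0, 29.3, 35.5 and 40.3 CPM in supported lambs A to E, 27.6 and 47.1 CPM in late preterm lambs F and G, and 2.42 and 5.22 CPM in preterm lambs H and I. In the hippocampus it was at 3.47 to 11.3 CPM in supported lambs, 6.72 and 7.32 CPM in late preterm lambs and 2.46 and 7.45 CPM in preterm lambs. The arms overlapped there. In the basal ganglia it was at 19.0, 51.7, 5.28, 30.3 and 9.09 CPM in lambs A to E, 3.22 and 2.96 CPM in F and G, and 6.97 and 9.97 CPM in H and I, with both late preterm lambs below both preterm lambs.

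ENSOARG00000007278 followed with a ratio of 4.19 at a low level. In the motor cortex it was at 7.37, 3.16, 11.7, 15.4 and 6.10 CPM in lambs A to E, 3.78 and 5.62 CPM in F and G, and 0.752 and 0.394 CPM in H and I. It was at 1.97 CPM or less in each of the 27 libraries of the other regions, where no order of the arms could be seen. Neither of these genes, which differed most in the motor cortex, was called in another region for supported against preterm lambs (edgeR adjusted p of 0.591 to 0.967 for ENSOARG00000007278 and 0.492 to 0.720 for ENSOARG00000005007).

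The question for the other regions was whether the set as a whole was higher after the preterm stage there too. Its summed level was, in the hippocampus, the basal ganglia and the cerebellum. The motor cortex values are given beside them for scale. The 136 genes took 0.854 and 0.812% of reads in the motor cortex of preterm lambs H and I, 1.63 and 1.98% in late preterm lambs F and G, and 2.00 to 2.29% in the supported lambs. In the hippocampus they took 0.946 and 1.05% in H and I, 1.69 and 1.60% in F and G, and 1.40 to 1.90% in the supported lambs. In the basal ganglia the shares were 0.954 and 0.961% in H and I, 1.40 and 1.21% in F and G, and 1.22 to 1.86% in the supported lambs. In the cerebellum they were 0.726 and 0.659% in H and I, 1.15 and 1.16% in F and G, and 1.204 to 1.51% in the supported lambs. All 7 later lambs lay above both preterm lambs in the hippocampus, the basal ganglia and the cerebellum. In the motor cortex the rule fixed this order, so that region does not bear on the question. The 10 genes with the highest level gave 43.9% of the summed level in the later motor cortex. Without them the later lambs were still above the preterm lambs in the hippocampus, basal ganglia and cerebellum. In the hippocampus, for example, the values were 8462 to 10332 against 5346 and 6026 CPM. The 4 regions come from the same animals, so they are not independent repeats.

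**Figure D1:**
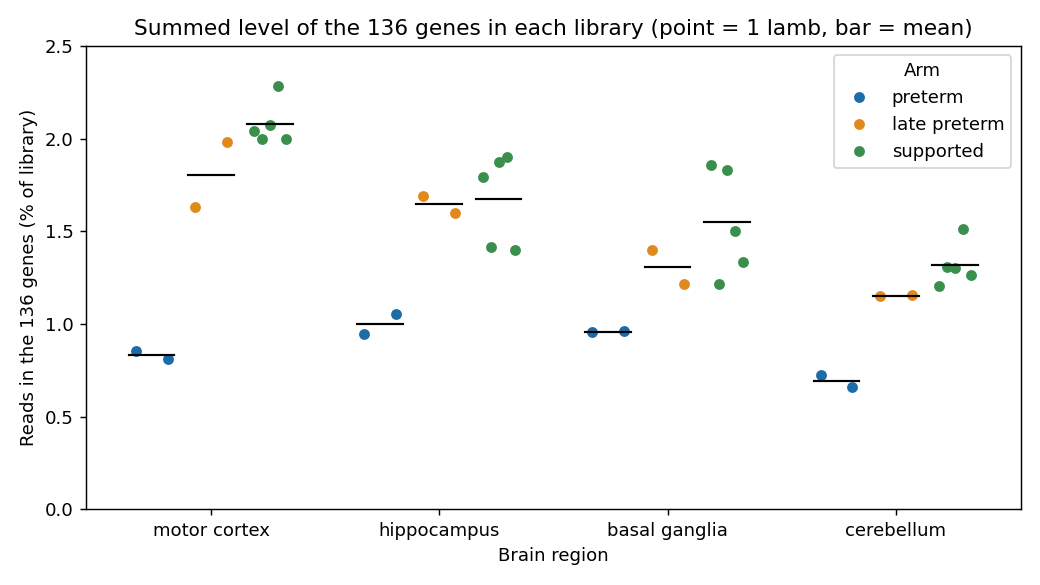
Share of each library's reads in the 136 genes (vertical axis, % of reads) by brain region, with 1 point per lamb, coloured by arm, and a line at each mean. The preterm lambs lie between 0.659 and 1.05% and every later lamb lies above both preterm lambs of its region, also in the 3 regions that did not choose the genes.

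In the hippocampus 30 of the 136 genes rose in supported against preterm lambs and none fell (edgeR quasi-likelihood test, Benjamini-Hochberg adjusted over 16370 genes, n = 5 and 2), where 1.32% of all tested genes were called higher and 1.2% lower. The log2 fold change was positive in 119 of the 136 (52.2% of all tested genes) and its median was 0.88, against 0.03 over all tested genes. All 7 later lambs lay above both preterm lambs in 67 of the 136 (49.3%), against 12.3% of all tested genes, and the reverse was true of 0, against 11.7%. Here and below all tested genes include genes of lower level than the rule admits. The count called rested on the preterm lambs, since it was 0 without lamb H and 0 without lamb I. It was 0 as well when a term for the 2 depth groups was added, with a median of 0.91. The count was 10 without lamb B, 6 without C, 12 without E, 8 without F or G and 41 without A, and the median stayed at 0.79 to 1.06 whichever lamb was left out. Without A, 546 of all 16347 tested genes were called higher and 393 lower. The shares of all genes in the other leave-out fits are not given, and these counts are not read as results about the set. With all libraries, 74 of the 136 were higher at an unadjusted p under 0.05 (13.3% of all tested genes). Without the libraries of B, E and G, which resembled another region, no gene of the set was called. In that fit the median was 1.02 and the fold change was positive in 127. DESeq2 called 64 of the 136 higher and 0 lower (7.4 and 5.09% of genes with an adjusted p in that tool). Both preterm hippocampus libraries resembled the motor cortex, the tissue in which low preterm values chose the set, and the part of this in the hippocampus result was not tested.

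Late preterm against preterm lambs gave no call in the hippocampus in edgeR, for the set or for any gene, but 17 of the 136 higher in DESeq2 (0.582% of genes with an adjusted p). Unadjusted p was under 0.05 with a higher level in 45 of the 136 (4.87% of all tested genes) and a lower level in 0 (3.6%). Both late preterm lambs lay above both preterm lambs in 96 of the 136, against 26.3% of all tested genes, and the log2 fold change was positive in 126 (51.9%), with a median of 0.76. This comparison and the one before it share the 2 preterm libraries. The hippocampus libraries of late preterm lamb G and of both preterm lambs resembled the motor cortex, the tissue in which low preterm values chose the set. The part of this in the late preterm comparison was not tested.

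In the basal ganglia no gene of the set was called for supported against preterm lambs in edgeR, and none of all 16679 tested genes was, while DESeq2 called 32 higher and 0 lower of the 135 to which it gave an adjusted p (1.93 and 1.41% of such genes). At an unadjusted p under 0.05, 50 of the 136 were higher (6.55% of all tested genes) and 1 lower (5.61%). A positive log2 fold change was seen in 125 of the 136, against 54.3% of all tested genes, with a median of 0.78 against 0.04. All 7 later lambs lay above both preterm lambs in 31 of the 136 (22.8%), against 4.51% of all tested genes. The basal ganglia library of preterm lamb I resembled the motor cortex, the tissue in which low preterm values chose the set. That of supported lamb A resembled the hippocampus. The part of this in the basal ganglia result was not tested.

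For late preterm against preterm basal ganglia the fold changes of the set were widely spread. The median log2 fold change of the set was 0.45, with a range of -5.73 to 3.999, and it was positive in 91 of the 136 (48.6% of all tested genes). At an unadjusted p under 0.05, 43 were higher (8.34% of all tested genes) and 11 lower (7.95%), and edgeR called none (1 gene of all tested, or 0.006%, in each direction), against 26 higher and 7 lower in DESeq2 (2.58 and 2.68% of genes with an adjusted p). The basal ganglia libraries of lambs F and G resembled the hippocampus more than their own region, and preterm lamb I resembled the motor cortex. The part of this in the spread of fold changes was not tested.

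**Figure D2:**
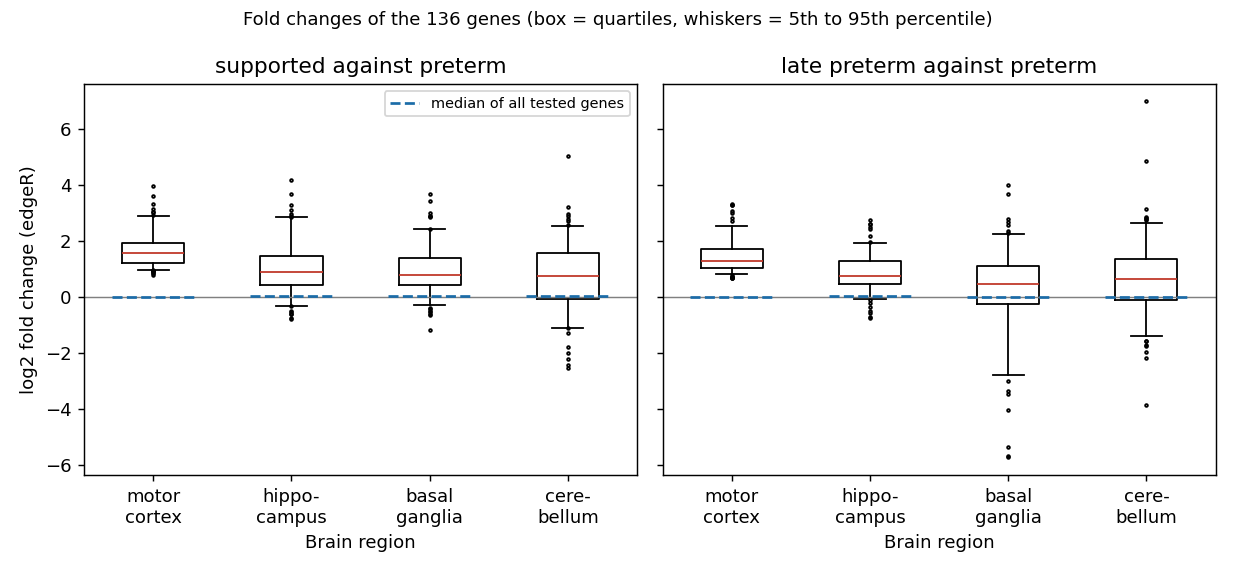
Distribution of edgeR log2 fold changes (vertical axis) of the 136 genes in each region for supported against preterm lambs (left) and late preterm against preterm lambs (right), drawn as boxes at the quartiles with the median inside, and with the median of all tested genes dashed. The medians of the set lie at 0.88, 0.78 and 0.74 in the hippocampus, basal ganglia and cerebellum on the left and at 0.76, 0.45 and 0.63 on the right, while the medians of all tested genes lie near 0; the motor cortex boxes were fixed by the selection.

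In the cerebellum 30 of the 136 genes rose in supported against preterm lambs and none fell (edgeR quasi-likelihood test, adjusted over 16304 genes), where 2.65% of all tested genes were called higher and 6.92% lower. At an unadjusted p under 0.05, 51 were higher (11.6%) and 5 lower (21.6%). The log2 fold change was positive in 98 of the 136 (50.6% of all tested genes), with a median of 0.74 against 0.02, and 38 of the 136 were on the negative side. All 7 later lambs lay above both preterm lambs in 57 of the 136 (41.9%), against 13.6% of all tested genes. DESeq2 called 44 higher and 2 lower of the 128 to which it gave an adjusted p (8.23 and 15.7% of such genes). With sex in the fit edgeR called 37 higher and 2 lower, but the share of all genes in that fit is not given. Leaving out the 3 cerebellum libraries with low correlations (D, G and H) left 1 preterm and 1 late preterm library, each assumed to vary like the supported lambs. In that fit 51 of 133 measured genes were called higher (4.85% of all tested genes) and 0 lower (2.78%), with a median of 0.86. Leaving out A, B, C or E, each alone, gave a count of 0, and leaving out D gave 3 and F or G 4. Without preterm lamb H, 20 were called higher (2.01%) and 0 lower (1.92%). Without preterm lamb I, which left the preterm library with the correlation of 0.197 alone, 53 were called higher and 19 lower, where 32.2 and 28.3% of all tested genes were. Scaling by library size alone gave 17. The shares of all genes are not given for that fit, nor for those without a lamb from A to G, and nothing is read from these counts. A term for the 2 depth groups gave 0, with a median of 0.45.

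For late preterm against preterm cerebellum edgeR called 0 of the set and 0 of all genes, and DESeq2 23 higher and 0 lower of the 118 to which it gave an adjusted p (2.82 and 6.25% of such genes). At an unadjusted p under 0.05, 36 of the 136 were higher (7.03% of all tested genes) and 2 lower (15.3%), and the median log2 fold change was 0.63. That median was 0.32 without lamb G. Without preterm lamb I, edgeR called 43 of the set higher and 21 lower, where 30.2 and 25.8% of all tested genes were, and the higher count was near that share.

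**Figure D3:**
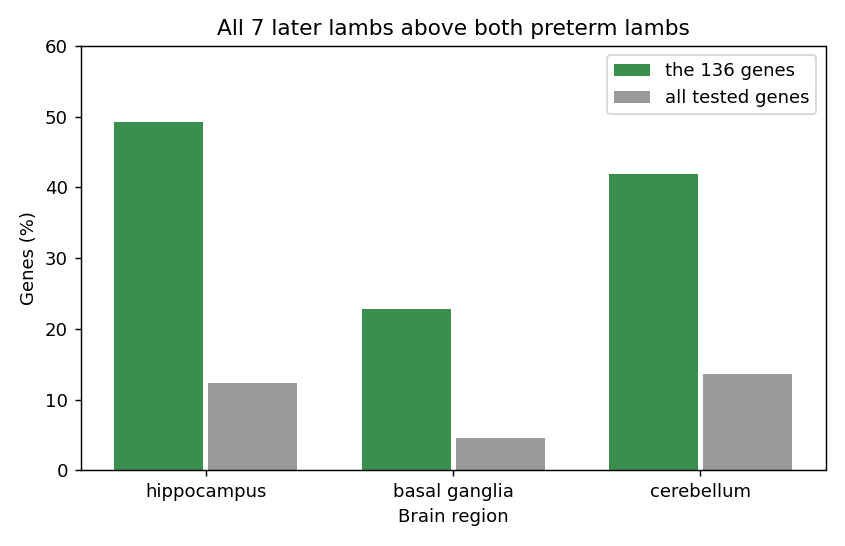
Percentage of genes (vertical axis) in which all 7 later lambs lay above both preterm lambs, in the 3 regions that were not used to choose the set, for the 136 genes and for all tested genes of the region. The bars of the set stand at 49.3, 22.8 and 41.9% and those of all tested genes at 12.3, 4.51 and 13.6%.

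Single genes followed the motor cortex to very different extents. All 7 later lambs lay above both preterm lambs in all 3 other regions for 15 of the 136, in 2 regions for 28, in 1 for 54 and in none for 39. Among the 15760 genes tested in all 3 regions, 0.692% did so in all 3 and 74.3% in none. The log2 fold change of supported against preterm lambs was positive in all 3 other regions for 82 of the 136, against 19.6% of those genes.

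The set was also divided by its ratio in the motor cortex. For the 44 genes with a ratio of at least 2, the median log2 ratio of the later to the preterm mean was 1.28 in the hippocampus, 1.29 in the basal ganglia and 1.03 in the cerebellum. For the 92 others it was 0.75, 0.55 and 0.84. All later lambs lay above both preterm lambs in 25, 11 and 17 of the 44 (56.8, 25 and 38.6%), in the same order of regions. This held in 42, 20 and 40 of the 92 (45.7, 21.7 and 43.5%), so in the cerebellum the 92 had the larger share. Over all tested genes the shares were 12.3, 4.51 and 13.6%. These classes were set by the rule's own values and their difference was not tested.

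A group of low cerebellar level was also described. In the supported lambs 34 of the 136 had a level in the cerebellum at least 4-fold below the motor cortex, on a scale of CPM plus 0.5. Among these 34, all later lambs lay above both preterm lambs in 5 in the hippocampus, 2 in the basal ganglia and 6 in the cerebellum. These shares, 14.7, 5.88 and 17.6%, were near those of all tested genes (12.3, 4.51 and 13.6%). Among the other 102 this held in 62, 29 and 51 (60.8, 28.4 and 50%). These classes were formed after the values were seen, and the difference between them is a description. The cerebellum values of the supported lambs helped form the classes and also enter the cerebellum shares, so those shares are not independent of the classes.

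The summed level of the same 34 genes moved with single libraries. In the cerebellum it was 379 to 672 CPM in lambs A, B, C, E, F, H and I, 2147 CPM in lamb D and 1516 CPM in lamb G. In the hippocampus it was 1840 and 1564 CPM in supported lambs B and E, below the 2098 and 2282 CPM of preterm lambs H and I, and 3267 to 4601 CPM in lambs A, C, D, F and G. In the basal ganglia it was 1464 and 1328 CPM in late preterm lambs F and G, below the 1915 and 2240 CPM of H and I, and 2754 to 4539 CPM in the supported lambs. In the motor cortex, where the rule fixed the order, the values were 3935 to 5874 CPM in the later lambs and 1789 and 1583 CPM in H and I. The libraries of B and E in the hippocampus and of F and G in the basal ganglia were among those that resembled another region, and the part of that in these levels was not tested.

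To lessen the weight of single libraries, the counts of the hippocampus and the basal ganglia were summed per lamb, which gave 1 value per animal. The preterm sums still held the hippocampus libraries of H and I and the basal ganglia library of I. These resembled the motor cortex, the tissue in which low preterm values chose the set. The part of this in the results of the sums, here and below, was not tested. In these sums 26 of the 136 genes rose in supported against preterm lambs and none fell (edgeR quasi-likelihood test, adjusted over 17550 genes, n = 5 and 2), where 0.695% of all tested genes were called higher and 1.01% lower. A positive log2 fold change was seen in 123 of the 136 (52.5% of all tested genes), with a median of 0.90 against 0.02. Over any lamb left out the median was 0.80 to 0.94. The count was 0 without lamb H or I, 1 without F or G, 10 without C, 11 without E, and 0 with either sex or depth group added to the fit, with medians of 0.88 and 0.96. The shares of all genes in these fits are not given, and these counts are not read as results about the set. DESeq2 called 63 higher and 0 lower (6.44 and 5.29% of genes with an adjusted p).

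For late preterm against preterm lambs the sums gave 0 calls in edgeR and 34 of the 136 higher in DESeq2 (2.01% of genes with an adjusted p). With the lamb as the block over the separate libraries (limma-voom), 2 were called, with the share of all genes in that fit not given. At an unadjusted p under 0.05, 51 of the 136 were higher (7.64% of all tested genes) and 0 lower (6.48%), with a median log2 fold change of 0.62.

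ENSOARG00000008188 had the smallest p in these sums. In the hippocampus it was at 354, 508, 449.9, 433 and 444 CPM in supported lambs A to E, 363 and 329 CPM in late preterm lambs F and G, and 155 and 141 CPM in preterm lambs H and I. In the basal ganglia it was at 411, 469, 513, 569.6 and 329.9 CPM in A to E, 479.6 and 416 CPM in F and G, and 189 and 145 CPM in H and I. Every later lamb was above both preterm lambs in both regions. Its log2 fold change in the sums was 1.52 ± 0.16 (SE) for supported against preterm lambs (edgeR adjusted p = 0.0213) and 1.36 ± 0.18 for late preterm against preterm (edgeR adjusted p = 0.136).

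In the cerebellum ENSOARG00000008188 was at 271, 239.9, 253, 302 and 249.6 CPM in A to E, 268 and 229 CPM in F and G, and 195 and 233 CPM in H and I, so that the arms overlapped. Its change between supported and preterm lambs was smaller in the cerebellum than in the hippocampus by a difference of -1.43 on the log2 scale (edgeR with the lamb as a block, adjusted p = 0.00429), and by -1.48 (edgeR adjusted p = 0.0373) without the cerebellum libraries of D, G and H, which leaves 1 preterm cerebellum library. It was the only gene of the set for which such a difference was called in both fits.

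ENSOARG00000011720 was next. In the motor cortex it was at 11.1 to 15.0 CPM in supported lambs, 16.7 and 17.5 CPM in late preterm lambs and 2.17 and 4.63 CPM in preterm lambs. Its hippocampus level was 15.2, 16.9, 29.9, 21.2 and 13.8 CPM in A to E, 26.9 and 10.3 CPM in F and G, and 1.91 and 5.06 CPM in H and I. In the basal ganglia it was at 18.05, 23.1, 14.8, 19.6 and 21.4 CPM in A to E, 13.5 and 14.9 CPM in F and G, and 9.04 and 4.12 CPM in H and I. The later lambs were again all above the preterm lambs, and the log2 fold change in the sums was 1.97 ± 0.23 (SE) for supported against preterm lambs (edgeR adjusted p = 0.0213). In the cerebellum its 9 values lay between 6.58 and 11.2 CPM with no separation of the arms. Without lamb H or I, or with sex or depth group added to the fit, this gene and ENSOARG00000008188 both lost their call in the sums (edgeR adjusted p of 0.061 to 0.385), with log2 fold changes of 1.77 to 2.07 and 1.31 to 1.64. ENSOARG00000008188 also lost its call without lamb F or G (edgeR adjusted p = 0.0509 and 0.0532).

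On the other side, ENSOARG00000014936 had the smallest p among the 13 genes of the set with a negative fold change in the sums, and was not called (log2 fold change -0.98 ± 0.39, edgeR adjusted p = 0.2). Its motor cortex level was 449, 476, 327, 492 and 348 CPM in lambs A to E, 372 and 549.8 CPM in F and G, and 145 and 117 CPM in H and I. In the basal ganglia it was at 100.5, 81.5, 155, 99.1 and 82.7 CPM in A to E, 51.2 and 66.8 CPM in F and G, and 149 and 331 CPM in H and I. Both late preterm lambs were below every other lamb there, and preterm lamb I was the highest. In the hippocampus it was at 52.4 and 49.3 CPM in lambs B and E and at 164 to 255 CPM in the other 7 lambs, preterm ones included.

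ENSOARG00000011575 and ENSOARG00000003317 were the 2 genes with a negative fold change for supported against preterm lambs in all 3 other regions, the latter named after its values were seen. The motor cortex level of ENSOARG00000003317 was 228 ± 27.8 CPM (SD, n = 5) in supported lambs, 194 and 253 CPM in late preterm lambs and 74.7 and 70.0 CPM in preterm lambs. In the hippocampus it was at 4.47 and 3.89 CPM in lambs B and E and at 40.0 to 141 CPM in the other 7. In the basal ganglia it was at 201, 20.4, 84.0, 5.23 and 11.99 CPM in A to E, 2.37 and 2.54 CPM in F and G, and 78.4 and 132 CPM in H and I. Supported lambs lay on both sides of the preterm lambs there, and none of its fold changes there was called (edgeR adjusted p of 0.818 in the hippocampus, 0.838 in the basal ganglia and 0.938 in the cerebellum).

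ENSOARG00000011575 was at 31.2 to 53.5 CPM in supported lambs, 53.3 and 75.9 CPM in late preterm lambs and 13.2 and 18.3 CPM in preterm lambs, in motor cortex. In the hippocampus it was at 35.0, 6.99, 14.5, 10.04 and 2.00 CPM in A to E, 8.18 and 37.3 CPM in F and G, and 10.1 and 37.2 CPM in H and I. Each arm there held a high and a low lamb. It was not called in the sums (log2 fold change -0.63 ± 0.93, edgeR adjusted p = 0.719).

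ENSOARG00000018274, at the lower edge of the set, had the largest of its fold changes in the cerebellum. It was at 407, 377, 472, 431 and 342 CPM there in lambs A to E, 353 and 321 CPM in F and G, and 89.3 and 157 CPM in H and I, with no overlap. The log2 fold change for supported against preterm lambs was 1.59 ± 0.21 (SE, edgeR adjusted p = 0.0203) in the cerebellum and 0.00 ± 0.49 in the hippocampus (edgeR adjusted p = 0.998). The change was larger in the cerebellum than in the hippocampus by 1.80 (edgeR with the lamb as a block, adjusted p = 0.0226), or by 1.83 (edgeR adjusted p = 0.186) without the cerebellum libraries of D, G and H.

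ENSOARG00000014106, the gene closest to the threshold, was at 305 to 352 CPM in supported lambs, 352 and 251 CPM in late preterm lambs and 161 and 217 CPM in preterm lambs, in cerebellum. All later lambs were above both preterm lambs, and the change was not called (log2 fold change 0.62 ± 0.20, edgeR adjusted p = 0.0693). Its basal ganglia level was 514, 112, 335, 152 and 135 CPM in A to E, so that supported lambs lay both above and below the preterm lambs at 180.3 and 223 CPM.

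**Figure D4:**
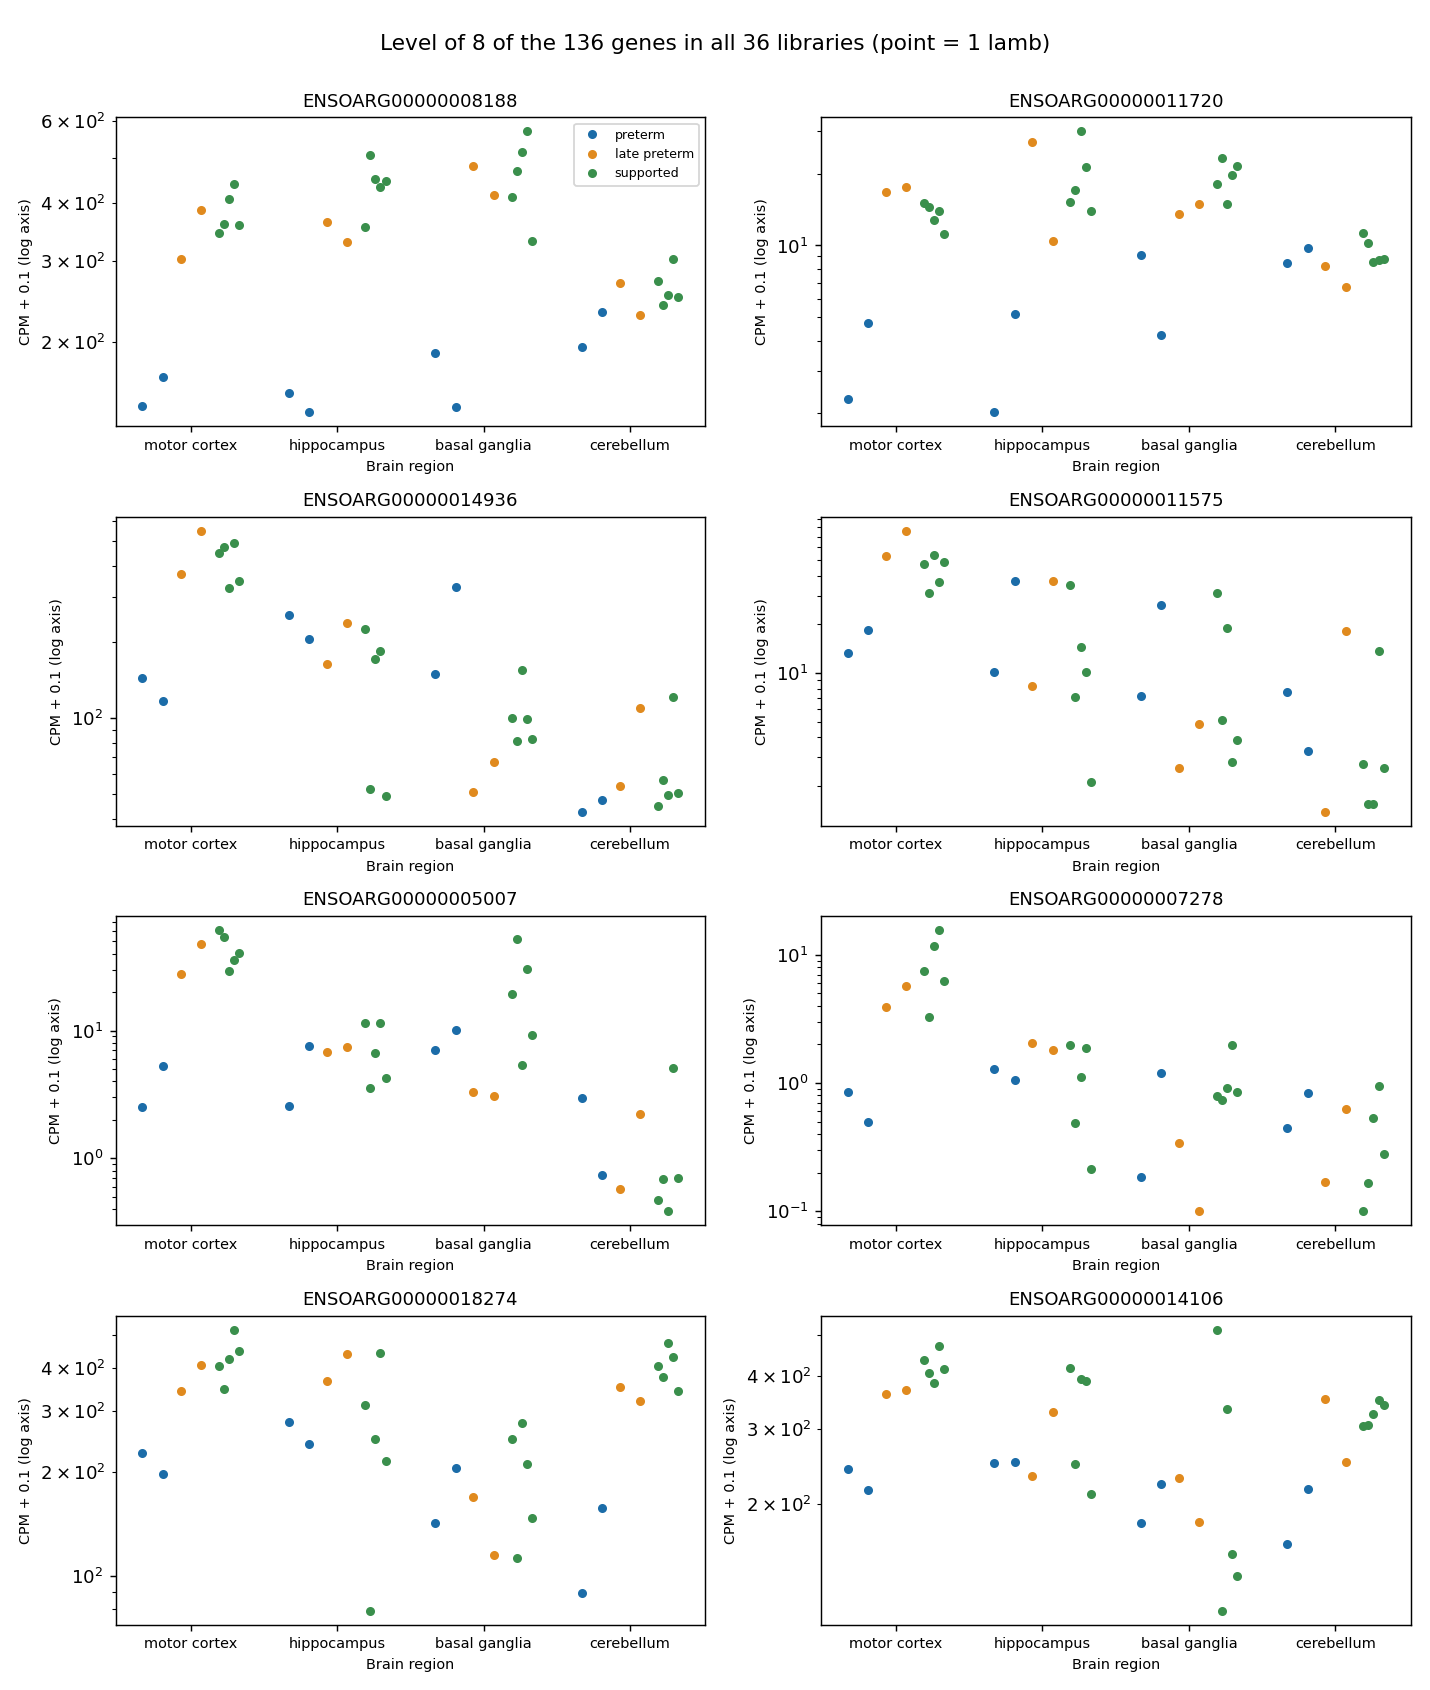
Level of 8 of the 136 genes in all 36 libraries (vertical axis, CPM plus 0.1 on a log axis) by region, with 1 point per lamb coloured by arm. In the motor cortex the later lambs are above the preterm lambs by selection; ENSOARG00000008188 and ENSOARG00000011720 repeat this in the hippocampus and basal ganglia, ENSOARG00000018274 in the cerebellum, and the other 5 show overlapping arms in at least 2 of the other regions.

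Over the whole set the change between supported and preterm lambs was also compared between the 3 regions, with the lamb as a block (edgeR, 17299 genes). Between the basal ganglia and the hippocampus no gene of the set and no gene at all was called, with 10 of the 136 and 495 of all genes at an unadjusted p under 0.05. Between the cerebellum and the hippocampus 27 of the 136 were called (19.8% of all tested genes), 9 with a larger and 18 with a smaller change in the cerebellum, and between the cerebellum and the basal ganglia 13 (11.7%). These shares were near the background. Leaving out the cerebellum libraries of D, G and H leaves 1 preterm cerebellum library, so here only medians over the set are given for that fit. Its adjusted p values are given only with the single genes named. The median difference over the set was -0.0002 for cerebellum minus hippocampus and 0.084 for cerebellum minus basal ganglia, on the log2 scale. Over all tested genes it was -0.030 and -0.027.

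Levels of the same gene were set side by side between regions by arm. In the preterm lambs the motor cortex held the highest of the 4 regional means for 5 of the 136, the hippocampus for 45, the basal ganglia for 46 and the cerebellum for 40. In the supported lambs the motor cortex held the highest for 59, the hippocampus for 24, the basal ganglia for 33 and the cerebellum for 20, and in the late preterm lambs 55, 26, 34 and 21. The rule asked for low preterm and high later values in the motor cortex, so that this shift is a description. The cerebellum held the lowest mean for 71 genes in the preterm, 78 in the late preterm and 85 in the supported lambs.

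Supported and late preterm lambs were of nearly the same age. The rule used the motor cortex values of these 7 lambs, through their lowest and their mean and without regard to arm, so that their comparison in this region is a description and nothing is read from its counts. Within motor cortex edgeR called 0 of the 136 and 0 of all 16173 genes, and DESeq2 12 of the 136, all higher in the supported lambs (2.64% of genes with an adjusted p). At an unadjusted p under 0.05, 29 of the 136 were higher (8.52% of all tested genes) and 3 lower (7.93%). The log2 fold change was positive in 104 of the 136, against 48.4% of all tested genes, with a median of 0.18 against -0.01. All 5 supported lambs lay above both late preterm lambs in 33 of the 136 (9.23% of all tested genes), and the reverse held in 4 (12.4%). The median was 0.030 without late preterm lamb F, the lamb with the lowest later value in 68 of the 136, and 0.37 without lamb G.

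In the other regions the medians for supported against late preterm lambs were 0.13 in the hippocampus, 0.30 in the basal ganglia and 0.14 in the cerebellum, against 0.01, 0.02 and 0.01 over all tested genes. No gene of the set was called there in edgeR (0.0839% of all tested genes were called higher in the basal ganglia and 0.204% lower). In the basal ganglia 6 were called higher without lamb C and 5 without E. The shares of all genes in those leave-out fits are not given, and nothing is read from these counts. DESeq2 called 1 higher in the hippocampus (0.109% of genes with an adjusted p), 23 higher and 3 lower in the basal ganglia (3.96 and 1.95%) and 0 in the cerebellum (0.0224%). That a threshold was missed with 2 late preterm lambs is no sign of likeness. With no adjustment, at p under 0.05, 18 were higher in the hippocampus (2.51% of all tested genes), 36 in the basal ganglia (8.71%) and 3 in the cerebellum (0.644%), and 0, 5 and 0 were lower (2.35, 6.43 and 0.546%).

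Depth and sex were not balanced between the arms, and values within each are given for the set. Supported lamb A, the only later lamb in the shallower group, lay above both preterm lambs in 122 of the 136 in the hippocampus (40.9% of all tested genes), 122 in the basal ganglia (30.6%) and 81 in the cerebellum (35.7%). The basal ganglia libraries of A and I and the hippocampus libraries of H and I were among those that resembled another region. The part of this in these counts was not tested. The 4 female supported lambs all lay above female preterm lamb H in 88 of the 136 in the hippocampus (27.8%), 54 in the basal ganglia (15%) and 88 in the cerebellum (53.6%). The 3 male later lambs all lay above male preterm lamb I in 95, 80 and 82 of the 136, against 29.5, 33.7 and 26.3% of all tested genes. With 1 preterm lamb per sex and 1 later lamb in the shallower group, these are counts with no test.

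The spread between lambs was wider for the set than for genes in general. Over the 5 supported lambs the median SD of log2 (CPM plus 0.5) was 0.53 in the hippocampus, 0.70 in the basal ganglia and 0.38 in the cerebellum for the 136 genes, against 0.28, 0.33 and 0.22 over all tested genes. In the motor cortex, where the rule bounded the later lambs from below, it was 0.23 against 0.19.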

How the data were processed

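The authors deposited raw read counts per gene for 36 libraries. Per the series' design text, reads were trimmed by fastp and checked by SeqKit, and STAR aligned them to the sheep genome of Ensembl release 107 and counted them without strand, so overlapping and antisense genes cannot be told apart; tool versions: not given in the sources used here. Of 27054 genes, 2828 were at 0 throughout. Lambs are separate animals, and no 2 libraries of a group were copies (chi-square per degree of freedom 6.94 to 166.0 over 48 pairs).

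CPM was computed from column totals, without strand or length correction. Each region, and the sums of hippocampus and basal ganglia per lamb, were fitted over all 3 arms with edgeR 4.0.16 (R 4.3.3, TMM, filterByExpr, quasi-likelihood, threshold 0.05). All 136 genes passed the filter in each of these fits. Since each arm has its own lambs, arms could not be paired. Alternatives were DESeq2 1.42.0, limma 3.58.1 with the lamb as a block, other scaling, filters and covariates, and each lamb left out. The test of differences between regions and the region match were added after the data were seen. Standard errors were derived from the F statistic. The fits were tested on simulated data.

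The members, lists and tests were chosen with earlier results of these data known. Genes named are those with the smallest p in each direction in the sums, 2 each, and the 2 largest and 2 smallest ratios, with 2 genes outside the ratio threshold. Symbols matched for 0 identifiers against 35057 sheep genes (assembly ARS-UI_Ramb_v3.0), so gene lists, sequences and coordinates were not used.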

Additional observations from a re-analysis of the deposited data

Results flagged for a closer look

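Among 36 sets of 5 supported lambs examined, 6 held 1 lamb far from the rest. For independent, normally distributed values about 1 in 20 such sets would. These sets share libraries and use raw CPM, and the rule bounded those of the motor cortex. The 6 therefore cannot be set against that share. The summed level of the 136 genes in the motor cortex was 22857 CPM in lamb D, against 19964 CPM in the lowest lamb and a median of 20408 CPM, with a gap of 0.734 of the range. In the cerebellum lamb D was again the high one for 3 genes. ENSOARG00000005007 was at 4.99 CPM there against a median of 0.591 CPM (gap 0.933 of the range), ENSOARG00000011575 at 13.6 against 2.48 CPM (0.901) and ENSOARG00000014936 at 121 against 50.3 CPM (0.843). In the basal ganglia ENSOARG00000007278 was at 1.89 CPM in lamb D against a median of 0.753 CPM (0.866), and ENSOARG00000014936 at 155 CPM in lamb C against 99.1 CPM (0.742). Lamb D's cerebellum library also had a low correlation with its own region, and the part of this in these values was not tested.

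The change between supported and preterm lambs differed between regions for 3 of the genes named (edgeR with the lamb as a block). It was smaller in the cerebellum than in the hippocampus by -2.57 for ENSOARG00000011720 (edgeR adjusted p = 0.0139, or 0.131 without the cerebellum libraries of D, G and H) and by -1.43 for ENSOARG00000008188, and larger by 1.80 for ENSOARG00000018274. Against the basal ganglia it was smaller in the cerebellum by -1.33 for ENSOARG00000008188 (edgeR adjusted p = 0.0232, or 0.226 without those libraries). Over the set 27 genes differed between the cerebellum and the hippocampus and 13 between the cerebellum and the basal ganglia, both near the share of all genes.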

How the results depend on the processing

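Medians of the set were compared over the main fits and those with library-size scaling, sex, depth group or left-out lambs or cerebellum libraries. Of these 198 medians, 0 fell below 0. Those of the motor cortex against preterm were positive by the rule, and the other alternatives were not part of this tally. Counts of called genes moved widely. The limits are 2 preterm lambs, a depth split shared by lamb A alone, and hippocampus and basal ganglia libraries that resembled another region. The rule itself gave 44 genes at a ratio of 2, and 140 to 297 with 1 lamb left out, the most without lamb H (293) or I (297). For supported against preterm lambs, DESeq2 called 64 of the 136 in the hippocampus, 63 in the sums, 32 in the basal ganglia and 44 in the cerebellum (and 2 lower there). For late preterm against preterm it called 34 in the sums, and for supported against late preterm motor cortex 12. Without the low-count filter that last count was 1. With sex as a covariate the hippocampus count was 19 and that of the sums 0. With a term for depth group added, counts in the hippocampus, cerebellum and sums were 0, while the medians for supported against preterm were 0.91 in the hippocampus and 0.96 in the sums. Those that moved were 1.01 and 0.73 in the basal ganglia (supported and late preterm against preterm), 0.45 and 0.31 in the cerebellum and 0.83 in the sums for late preterm. Scaling by library size gave 17 in the cerebellum, and leaving out its libraries of D, G and H, which leaves 1 preterm library, gave 51. Leaving out hippocampus libraries that resembled another region gave 0, with a median of 1.02. The replicate block on the lamb, for the sums, gave 2 for late preterm against preterm and 32 for supported against preterm. Counts given in this section without a share of all genes show how calls moved with processing and are not read as results about the set. The causes of these shifts were not tested.

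With 1 lamb left out, the counts ran from 0 to 41 in the hippocampus, 0 to 53 in the cerebellum (the highest beside 19 lower), 0 to 35 in the sums for supported against preterm, and stayed at 0 for supported against preterm basal ganglia, for the sums for late preterm against preterm and for supported against late preterm motor cortex. The medians that moved by more than the spread between lambs were those of late preterm against preterm motor cortex (1.17 to 1.40), supported against late preterm motor cortex (0.030 to 0.37) and late preterm against preterm cerebellum (0.32 to 0.78).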
